A study of Mus musculus with 6 samples.

Results

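The intracellular calcium release machinery described here comprises the IP3 receptors Itpr1, Itpr2 and Itpr3, the ryanodine receptors Ryr1, Ryr2 and Ryr3, and the phospholipases C Plcz1, Plcd4, Plcb1 and Plcb3. Of these 10 genes, 9 had at least 1 probe set (a group of short probes read as one value) that carries the gene alone in the annotation used, and they held 25 of the 45037 probe sets tested. Itpr1 was not analysed here. Itpr2 had 6 probe sets, Plcb1 5, Ryr3 and Plcd4 3 each, Ryr1, Ryr2 and Plcz1 2 each, and Itpr3 and Plcb3 1 each. Probe sets of 1 gene share their target and are not independent of each other.

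Expression was measured in freshly dissected testis of adult mice of a C57BL/6 x CBA hybrid background, on Affymetrix whole-genome mouse arrays with 1 array per sample. There were 3 wild type (WT1 to WT3) and 3 transgenic samples (TG1 to TG3), which the series design states to be biologically independent. The transgenic mice carry a constitutively active mutant of DREAM, the calcium-binding transcriptional repressor encoded by Kcnip3, which binds DNA when free of calcium. The promoter driving the transgene, its founder line and the mice's exact ages are not given in the sources used here.

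Phospholipases C cut the membrane lipid PIP2 into diacylglycerol and the soluble messenger IP3. IP3 opens IP3 receptors in the endoplasmic reticulum and so releases stored calcium, while ryanodine receptors are related release channels opened by calcium itself or, in skeletal muscle, by the voltage sensor of the plasma membrane. In sperm, calcium release is tied to the acrosome reaction, and Plcz1 is delivered by the sperm into the egg, where it starts the calcium oscillations of fertilization. The comparison asks whether transcripts of this machinery differ when active DREAM is present, a question raised by the series title, which names calcium mobilization in sperm cells.

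None of the 25 probe sets passed the test between transgenic and wild-type testis, at adjusted p from 0.532 to 0.994 (limma, Benjamini-Hochberg over all probe sets). By the same rule 0.444% of all probe sets were called. The log2 differences, transgenic minus wild type, ran from -0.28 to 0.22, with a median of 0.06 beside 0.02 over all probe sets. The median size of the difference, regardless of direction, was 0.09 for the members and 0.08 over all probe sets. All 25 95% intervals lay within 1 log2 unit of 0, so a 2-fold change of intensity in either direction lay outside each of them, as it did for 99.4% of all probe sets. For 23 of the 25 the interval also lay within 0.5, beside 86.8% of all probe sets. However, 12 of the 25 read below the median of every array, and 3 below every lower quartile. No detection call came with the values, so for dim probe sets these intervals describe intensity and not the amount of transcript.

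A weaker criterion was met by some members. In 4 probe sets, of Plcb1, Plcz1, Ryr3 and Plcb3, the unadjusted p was under 0.05, as it was in 6.69% of all probe sets. In 5 of the 25 the ranges of the 3 wild-type and 3 transgenic arrays did not overlap, where 11.3% of all probe sets had non-overlapping groups. Of these 5, the probe sets of Plcz1, Plcb1 and Ryr3 read lower in transgenic testis (background 4.95%), and those of Ryr2 and Plcb3 read higher (background 6.35%). In all, 18 of the 25 differences were above 0, as were 56.5% over all probe sets.

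**Figure D1:**
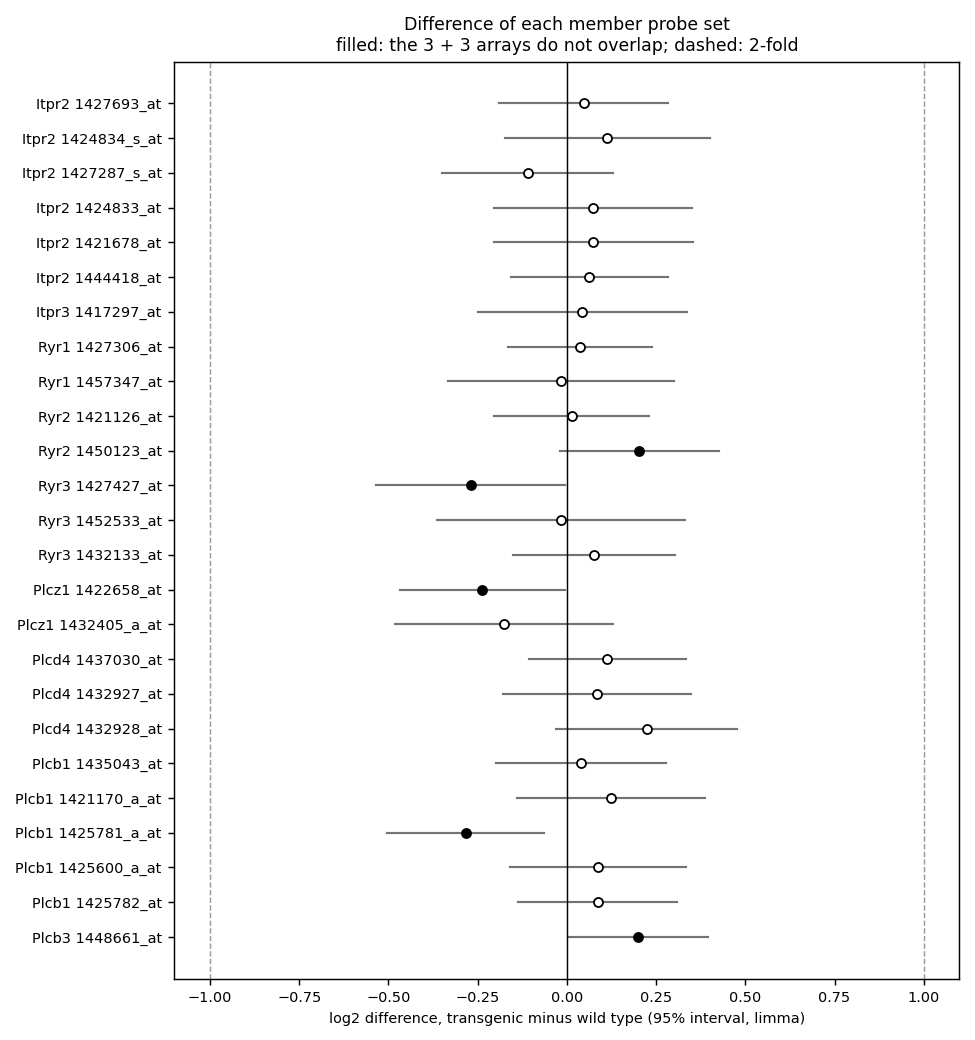
Log2 difference (transgenic minus wild type) of each of the 25 probe sets on the horizontal axis, with the 95% interval from limma as a line; filled points mark the 5 probe sets whose groups do not overlap and dashed lines mark a 2-fold change. Every interval lies between -0.54 and 0.48, inside the dashed lines.

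Facts of the whole series bear on these values. Median log2 intensity per array ran from 5.99 to 6.08, and no array was a copy of another. Along the leading principal component (38.9% of the variance) the scores placed WT2 at 42.2 and the other 5 arrays between -23.3 and 5.27. The next component (27.2%) separated the genotypes, at -23.8, -7.75 and -18.3 in wild type and 14.3, 15.5 and 20 in transgenic samples. The 3' minus 5' difference of the Gapdh control, which grows as RNA is degraded, ran from 0.06 to 0.16 in wild type and from 0.21 to 0.33 in transgenic samples (difference 0.16, exact two-sided permutation p = 0.1, the smallest that 3 against 3 arrays allow). The beta-actin control gave 0.03 (exact permutation p = 0.7). With the Gapdh difference as a covariate, 15 of the 25 member differences changed sign and none was called. Kcnip3 read 0.06 (SE 0.10) and 0.14 (SE 0.10) with its 2 probe sets (adjusted p = 0.974 and 0.909, limma). Both had overlapping groups, and no sequence of the transgene was at hand to tell whether it is read by them. The 6 round and 8 elongating spermatid markers all lay above every array's median in their mean over the 6 arrays. Of 80 measured markers in 14 cell type lists 1 was called, the Leydig cell enzyme Hsd3b1 (difference 1.48, SE 0.13, adjusted p = 0.00109). Of 8 listed Leydig genes 5 were measured. Hsd17b3 read 0.91 (SE 0.20, limma adjusted p = 0.146), and Star, Cyp11a1 and Cyp17a1 read 0.01, -0.06 and 0.03. The log2 summed level of the 5 ran from 12.17 to 12.40 in wild type and 12.45 to 12.64 in transgenic samples. Macrophage markers read above 0 in 6 of 6, with log2 summed levels of 9.36 to 9.57 in wild type and 9.60 to 9.79 in transgenic samples. Endothelial markers did so in 5 of 6 (8.389 to 8.503 and 8.475 to 8.537). Their part in the members' values was not tested. In bulk tissue, fewer cells of a type and less RNA per cell cannot be told apart.

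The phospholipases C held 11 of the 25 probe sets, and 8 of them read above 0 (median difference 0.09). Plcz1, the sperm-borne isoform made in spermatids, was read by 2 probe sets that both lay far up the intensity scale. Its brighter probe set (1422658_at) read 11.57, 11.46 and 11.44 in wild type and 11.13, 11.21 and 11.42 in transgenic testis (log2 intensity). The groups did not overlap, but TG3 lay only just below WT3, while TG1 and TG2 lay further down. The means were 11.49 ± 0.07 and 11.25 ± 0.15 (SD, n = 3), a difference of -0.24 (SE 0.10, 95% interval -0.47 to -0.0047, unadjusted p = 0.0464, limma adjusted p = 0.734). Without each array in turn it ran from -0.32 to -0.175.

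The other Plcz1 probe set (1432405_a_at) read 10.17, 10.61 and 10.65 in wild type and 10.25, 10.41 and 10.24 in transgenic testis. Here the groups overlapped, because WT1, the highest array with the first probe set, was the lowest of all 6. The difference was -0.18 (SE 0.14, 95% interval -0.48 to 0.13, adjusted p = 0.923), and ran from -0.33 without WT1 to -0.09 without WT3. Set against each other within an array, the brighter minus the dimmer probe set gave 1.40 in WT1 and 1.18 in TG3, and 0.79 to 0.88 in the other 4 arrays. So the probe sets shared the direction of the group difference and not the order of the arrays, and 1 array of each genotype stood apart. Averaged over both probe sets, Plcz1 read 10.87, 11.04 and 11.05 in wild type and 10.69, 10.81 and 10.83 in transgenic testis, without overlap. The averaged difference was -0.21 (SE 0.08, 95% interval -0.39 to -0.02, limma unadjusted p = 0.0326, adjusted p = 0.542).

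Markers of the cells that make Plcz1 were read on the same arrays. Of 6 round spermatid genes 5 read below 0, and the log2 of their summed intensity ran from 13.89 to 13.94 in wild type and from 13.79 to 13.91 in transgenic testis. Of 8 elongating spermatid genes 4 read above 0, with summed levels of 16.62 to 16.66 and 16.62 to 16.68. Another of these 8, Odf1, had a difference that rounded to 0. RMA intensities have no zero, so none of these markers could be listed at an intensity of 0. Spermatocyte markers read below 0 in 7 of 8, none of them called; 2 had an unadjusted p under 0.05, the meiotic genes Sycp1 (-0.41, limma adjusted p = 0.541) and Spo11 (-0.38, adjusted p = 0.451). Their mean log2 level ran from 9.695 to 9.819 in wild type and from 9.56 to 9.631 in transgenic testis, without overlap, while their log2 summed level ran from 14.067 to 14.116 and from 14.015 to 14.075. The part of germ cell content in the Plcz1 values was not tested.

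Plcd4, a delta-type isoform known for its role in the acrosome reaction that the egg coat triggers, had 1 bright and 2 dim probe sets. The bright one (1437030_at) read 10.03, 10.16 and 10.11 in wild type and 10.15, 10.36 and 10.13 in transgenic testis. TG2 stood above the rest and the other 5 arrays were interleaved (difference 0.11, SE 0.10, 95% interval -0.11 to 0.33, adjusted p = 0.935). The dim ones (1432927_at and 1432928_at), at means of 4.72 and 4.09 over the 6 arrays, read differences of 0.08 and 0.22 (adjusted p = 0.971 and 0.8). TG2 was the highest array with all 3 Plcd4 probe sets, at 10.36, 4.99 and 4.34.

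Plcb1 and Plcb3 encode beta-type isoforms, which G proteins of the Gq family switch on behind cell surface receptors. Plcb1 had 5 probe sets that disagreed in direction. One of them (1425781_a_at) read 6.01, 5.75 and 5.80 in wild type and 5.55, 5.60 and 5.56 in transgenic testis. The groups did not overlap, with the 3 transgenic arrays close together below every wild-type array. The difference was -0.28 (SE 0.10, 95% interval -0.50 to -0.06, unadjusted p = 0.0169, adjusted p = 0.532), the largest in size and the smallest p among the members. The other 4 Plcb1 probe sets all read above 0, from 0.04 to 0.12 (adjusted p from 0.946 to 0.985), and their groups overlapped. Another probe set drawn from the same GenBank record (1425782_at) was among them, at 5.30, 5.44 and 5.37 against 5.32, 5.47 and 5.58. With all 5 averaged, Plcb1 read 5.85 ± 0.04 and 5.87 ± 0.12 (SD, n = 3; difference 0.01, SE 0.08, 95% interval -0.18 to 0.20).

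Plcb3 had a single probe set (1448661_at), which read 6.94, 7.01 and 7.08 in wild type and 7.16, 7.25 and 7.22 in transgenic testis. Every transgenic array lay above every wild-type array, and the spread within each group was small. The means were 7.01 ± 0.07 and 7.21 ± 0.05, a difference of 0.20 (SE 0.09, 95% interval 0.0032 to 0.40, unadjusted p = 0.0471, adjusted p = 0.737). Without each array in turn the difference ran from 0.165 to 0.235.

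**Figure D2:**
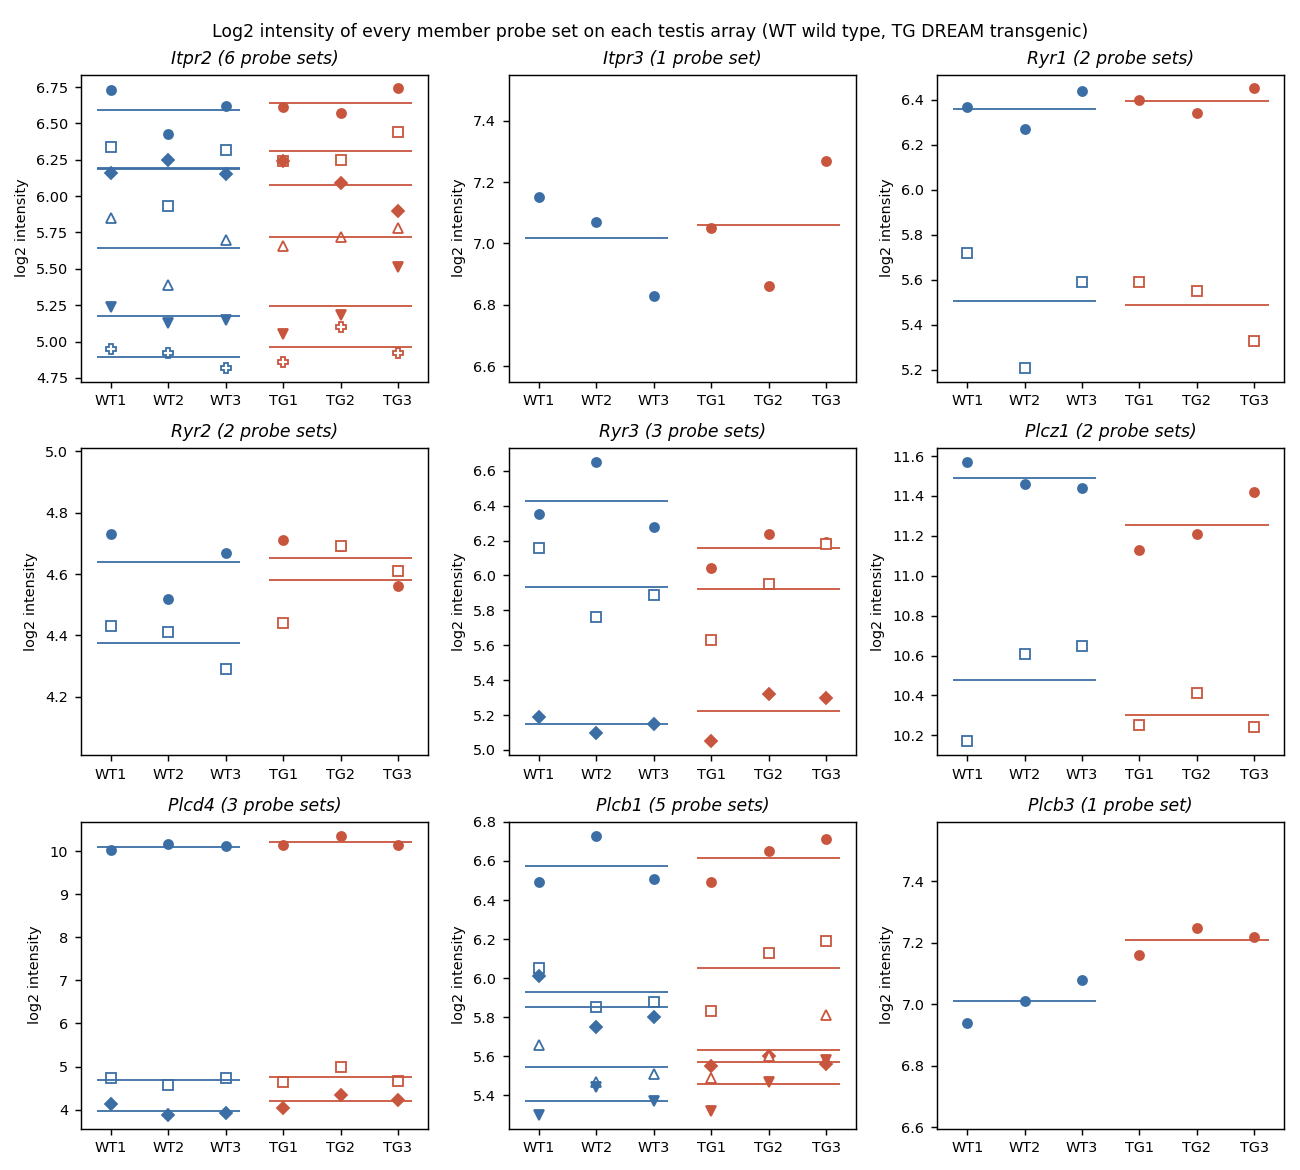
Log2 intensity of every probe set of the 9 genes on the 3 wild-type (blue) and 3 transgenic (red) arrays; marker shapes separate the probe sets of a gene, horizontal lines are group means over 3 arrays, and each panel has its own vertical axis. Plcz1 (filled circles, 11.13 to 11.57) and Plcb3 (6.94 to 7.25) show groups that do not overlap, while the 6 Itpr2 probe sets show overlapping groups.

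DREAM binds DNA through elements with the core GTCA, so the promoters of Plcb1 and Plcb3 are shown, as the members of smallest unadjusted p with an entry in the RefSeq-based promoter table (build GRCm38.p6; 250 bases before to 50 after the annotated start). Capitals mark GTCA or, where it lies on the opposite strand, TGAC. Plcb1 is at chr2:134785914-134786213 on the plus strand and Plcb3 at chr19:6969765-6970064 on the minus strand, each printed 5′ to 3′ along its gene.
Plcb1: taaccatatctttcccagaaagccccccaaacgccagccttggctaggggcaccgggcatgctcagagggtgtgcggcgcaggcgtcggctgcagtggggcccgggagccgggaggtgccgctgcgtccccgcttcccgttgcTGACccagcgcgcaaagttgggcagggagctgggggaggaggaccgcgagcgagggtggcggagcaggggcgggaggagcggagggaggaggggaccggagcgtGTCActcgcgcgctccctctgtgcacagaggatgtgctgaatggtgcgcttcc
Plcb3: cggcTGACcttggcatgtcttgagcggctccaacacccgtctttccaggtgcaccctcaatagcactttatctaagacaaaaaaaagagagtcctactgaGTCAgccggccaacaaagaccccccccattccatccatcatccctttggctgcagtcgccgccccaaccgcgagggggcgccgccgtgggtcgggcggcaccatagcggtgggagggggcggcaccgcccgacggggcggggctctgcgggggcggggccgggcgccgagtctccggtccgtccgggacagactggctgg
Each window holds 2 matches, the median number over all 32851 promoters of that length. In Plcb1 they start at -107 and -3 from the start site, and in Plcb3 at -246 and -150. The match at -150 in Plcb3 lies within TGAGTCA, the AP-1 element, which 5.2% of all promoters hold on either strand. The table held 8 promoters of 7 members, of Itpr2, Itpr3, Ryr1, Ryr2, Plcd4 (with 2), Plcb1 and Plcb3. Of these 7 held GTCA on either strand, as did 85.2% of all promoters, and Itpr3 was the one without. A longer form of the element, GTCAAAG or its variant GTCAAGG, or else GTCAGAG or its variant GTCAGGG, on either strand, was in none of the 8 and in 16.9% of all promoters. These are matches of letters in one window, with no measure of binding. Itpr1, Ryr3 and Plcz1 had no entry.

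The IP3 receptors were covered by 7 probe sets of Itpr2 and Itpr3. None reached an unadjusted p under 0.05, none had non-overlapping groups, and 6 of 7 read above 0 (median difference 0.06). Itpr3 (1417297_at) read 7.15, 7.07 and 6.83 in wild type and 7.05, 6.86 and 7.27 in transgenic testis. Its groups covered nearly the same range (7.02 ± 0.17 and 7.06 ± 0.21, SD, n = 3; difference 0.04, SE 0.13, 95% interval -0.25 to 0.34, adjusted p = 0.987).

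Itpr2, the receptor subtype with the highest affinity for IP3, read 6.73, 6.43 and 6.62 in wild type and 6.61, 6.57 and 6.74 in transgenic testis with its brightest probe set (1427693_at). WT2 was the lowest array, and the rest were interleaved (difference 0.05, SE 0.11, 95% interval -0.19 to 0.28, adjusted p = 0.982). The same array was lowest with 1424834_s_at (5.93, against 6.24 to 6.44 in the other 5) and with 1424833_at (5.39, against 5.66 to 5.85). Without WT2 these 3 probe sets turned from 0.05, 0.11 and 0.07 to values of -0.035, -0.02 and -0.055, and all 3 also turned with the Gapdh covariate. The first turned without TG3 as well, and the second with default array weights. Another probe set (1427287_s_at) ran the other way, with WT2 highest at 6.25 and TG3 lowest at 5.90 (difference -0.11, SE 0.11, adjusted p = 0.948). Averaged over all 6, Itpr2 read 5.78 ± 0.10 and 5.83 ± 0.05 (difference 0.04, SE 0.08, 95% interval -0.14 to 0.22).

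The ryanodine receptors were covered by 7 probe sets, of which 4 read above 0 and 3 below (median difference 0.01). Ryr3, a subtype found at low levels in many tissues, read 6.35, 6.65 and 6.28 in wild type and 6.04, 6.24 and 6.19 in transgenic testis with its brightest probe set (1427427_at). The groups did not overlap, though WT3 and TG2 were close, and WT2 stood well above the rest. The difference was -0.27 (SE 0.12, 95% interval -0.535 to -0.005, unadjusted p = 0.0466, adjusted p = 0.735), and -0.16 without WT2. The other Ryr3 probe sets read -0.02 (1452533_at) and 0.08 (1432133_at), with overlapping groups (adjusted p = 0.994 and 0.968). With 1452533_at the transgenic arrays alone ran from 5.63 in TG1 to 6.18 in TG3, wider than the wild-type range of 5.76 to 6.16. The 3 averaged gave -0.07 (SE 0.10, 95% interval -0.29 to 0.15).

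Ryr2, the cardiac subtype, read low with both probe sets, each below the lower quartile of every array (4.71 to 4.84) in its mean over the 6 arrays. With 1450123_at it read 4.43, 4.41 and 4.29 in wild type and 4.44, 4.69 and 4.61 in transgenic testis. The groups did not overlap, though WT1 and TG1 were nearly equal (difference 0.20, SE 0.10, 95% interval -0.02 to 0.43, adjusted p = 0.791). The other probe set (1421126_at) read 0.01 (SE 0.10, adjusted p = 0.993). No detection call came with the values, so whether either reading exceeds background is unknown.

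Ryr1, the release channel of skeletal muscle, read 6.37, 6.27 and 6.44 in wild type and 6.40, 6.34 and 6.45 in transgenic testis with 1427306_at. Its range over the 6 arrays, 0.18, was the smallest of the 25, and the groups overlapped (difference 0.04, SE 0.09, 95% interval -0.17 to 0.24, adjusted p = 0.984). Its other probe set (1457347_at) read -0.02, with WT2 lowest at 5.21 and WT1 highest at 5.72. Of 6 skeletal muscle markers 3 lay below every array's median in their mean, and the log2 of their summed intensity ran from 9.20 to 9.45 in wild type and 9.31 to 9.38 in transgenic testis.

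The members also differed between arrays of 1 genotype. TG3 was the sole highest array in 9 of the 25 probe sets and the sole lowest in 1, where over all probe sets it was highest in 19.0%. TG1 was the sole lowest in 7 and the sole highest in 0, against 11.1% and 12.2% of all probe sets. TG2 was the sole highest in 7 and the sole lowest in 0, against 14.8% and 13.5%. WT2 was the sole lowest in 9, against 27.4% of all probe sets. The median deviation of the members from their own mean over 6 arrays was -0.07 in TG1 and 0.11 in TG3. Over all probe sets it was 0.0017 and 0.0167. The lowest member value was in WT2, at -0.085. These are values of single arrays, while the median difference between genotypes of 0.06 compares means of 3 arrays. Several probe sets of Itpr2 and Plcb1 enter these counts, so they are not 25 separate observations.

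**Figure D3:**
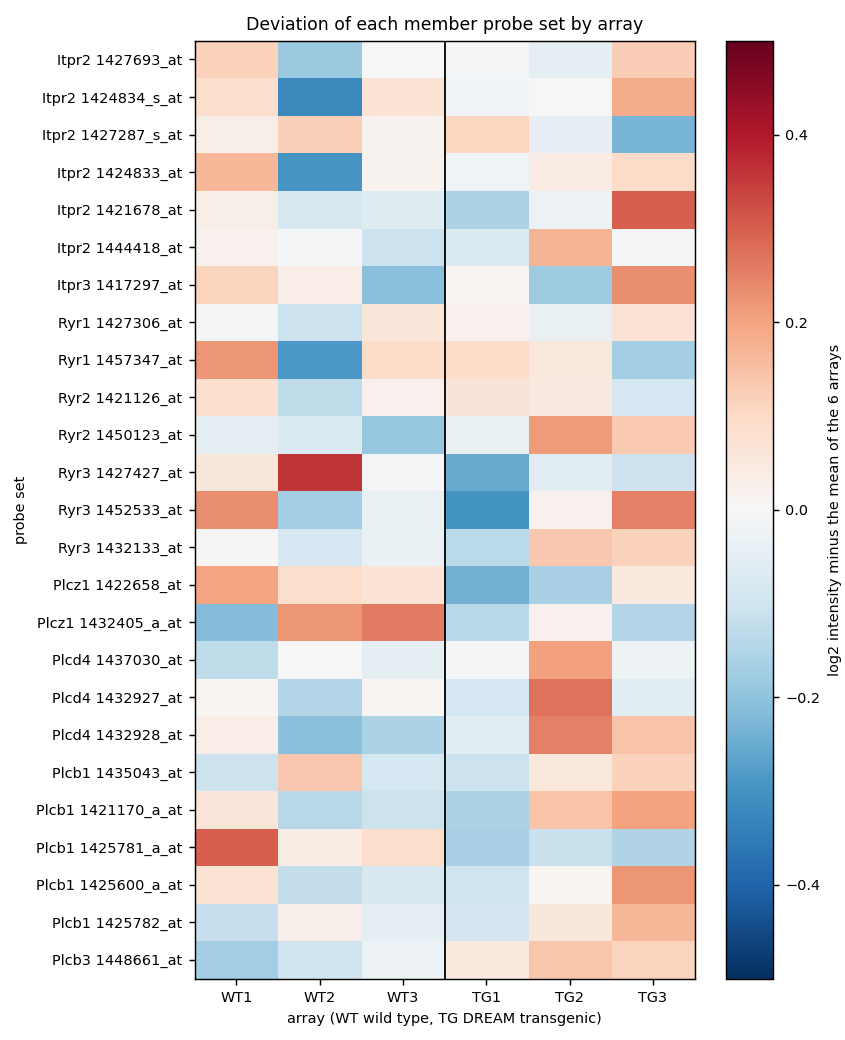
Log2 intensity of each member probe set minus its mean over the 6 arrays, by array (columns; the black line separates wild type from transgenic); red is above and blue below the mean. WT2 is low with several Itpr2 and Ryr1 probe sets (down to 5.21 with Ryr1 1457347_at), and TG1 is the sole highest array in none of the 25.

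Among the genes around this machinery, 71 of 78 listed genes had a probe set. None passed with its brightest probe set, where 0.617% of all 18161 genes did (0.264% higher and 0.352% lower, limma). An unadjusted p under 0.05 was reached by 4 of them, beside 7.49% of all genes. Non-overlapping groups were seen in 10, beside 12.5%. Their median difference was 0.03, beside 0.02 over all genes, and 43 of 71 read above 0, beside 56.8%.

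One enzyme of PIP2 supply did pass with another probe set, and it was singled out after its values were seen. Pi4k2b, a type II phosphatidylinositol 4-kinase that makes the lipid from which PIP2 is formed, read 8.09, 8.40 and 8.32 in wild type and 7.45, 7.39 and 7.69 in transgenic testis with 1416489_at. Every transgenic array lay well below every wild-type array. It fell 1.69-fold with this probe set (8.27 ± 0.16 to 7.51 ± 0.16, SD, n = 3; difference -0.76, SE 0.12, 95% interval -1.03 to -0.49, limma adjusted p = 0.0313). This was the 1 call among the 171 probe sets of the listed genes, where 0.273% of all probe sets were called lower and 0.171% higher. The dimmer 1420411_a_at read 5.33, 5.86 and 5.62 against 5.26, 5.16 and 4.91 (difference -0.49, SE 0.15, adjusted p = 0.385). The brightest, 1449862_a_at, read 10.40, 10.43 and 10.39 against 10.32, 10.33 and 10.36 (difference -0.07, SE 0.08, adjusted p = 0.965). All 3 read lower with non-overlapping groups, by amounts from 0.07 to 0.76. The call was lost without WT3 (adjusted p = 0.18), TG1 (0.189), TG2 (0.217) or TG3 (0.0723), with the replicate number as a block (0.0774), with the Gapdh covariate (0.374) and when the 3 probe sets were averaged (difference -0.44, adjusted p = 0.0684), and held without WT1 (0.026) or WT2 (0.0288). The difference itself stayed between -0.85 and -0.695 without each array in turn, and was -0.76 with the block and with the Gapdh covariate. Calls over all probe sets fell as well, from 200 to 70 without WT3, 71 without TG1, 75 without TG2 and 73 without TG3. They numbered 117 with the block and 18 with the Gapdh covariate, but 156 without WT1 and 429 without WT2.

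Itpka, the kinase that converts IP3 to IP4 and so ends its action on the receptors, came nearest to the threshold among the brightest probe sets. It read 7.23, 7.32 and 7.24 in wild type and 6.78, 6.90 and 6.73 in transgenic testis (1424037_at, its only probe set). The groups lay well apart and each was tight (7.26 ± 0.05 and 6.80 ± 0.09, SD, n = 3; difference -0.46, SE 0.09, 95% interval -0.66 to -0.26, unadjusted p = 0.000591, adjusted p = 0.0864). Over the alternatives its difference stayed between -0.51 and -0.35 and its adjusted p ran from 0.00267 to 0.508. It passed in a fit without the dimmest 60% of the table (0.0481), with 1 averaged value per gene (0.0318) and with array weights of either method (0.00267 and 0.0109). With these weights 9.24% and 2.35% of all probe sets were called, beside 0.444% in the main fit. The estimate of the default weights, which gave 0.00267, did not converge. The fits with the filter and with averaged values left the difference at -0.46. They tested fewer rows (18013 and 18161, beside 45037) and added no data on Itpka, whose only probe set had none to be averaged with. Of the other 8 genes of IP3 breakdown none had an unadjusted p under 0.05, and Inpp1, an inositol polyphosphate phosphatase, read 0.21 (SE 0.11, adjusted p = 0.83).

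In the remaining lists no gene passed with its brightest probe set. Of the 10 kinases of PIP2 supply, 3 read above 0 and 7 below, with Pip5k1c, a kinase that makes PIP2 itself, at 7.23, 7.05 and 6.75 against 7.24, 7.35 and 7.42 (difference 0.33, SE 0.13, adjusted p = 0.667). Its groups barely cleared each other, and the wild-type arrays were widely spread. Without WT3 the difference was 0.197, and its other probe set (1450228_a_at) read 0.03 (SE 0.16). Pip4k2b read -0.23 (adjusted p = 0.857). The other 11 phospholipases C split 8 above to 3 below 0, with Plch2 at 0.27 and Plcl1, a catalytically inactive relative, at 0.26 (adjusted p = 0.763 and 0.802). All 6 genes of the Gq family and its regulators read above 0 with their brightest probe sets (median difference 0.18), with overlapping groups in each. Other probe sets of Gna14 (1420385_at at -0.21 and 1447791_s_at at -0.10) and of Gnaq (1428938_at, 1428940_at and 1447593_x_at, at -0.08, -0.04 and -0.13) read below 0. Gna15 read 0.19 and Gnaq 0.18 (adjusted p = 0.871 and 0.88), and these values went to 0.098 without WT2 and 0.10 without WT3. In the diacylglycerol branch, with 13 measured genes and a median of 0.02, Dgkd read 0.20 and Dgke 0.16 (adjusted p = 0.82 and 0.86). With its other probe sets Dgke read -0.19 (1423000_a_at) and 0.01 (1436547_at).

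The 22 partners of the release channels had a median of 0.03, with 14 above 0. Casq2, the calsequestrin that stores calcium beside ryanodine receptors in heart, read 6.55, 6.58 and 6.60 in wild type and 6.83, 6.74 and 6.74 in transgenic testis. The groups did not overlap and were tight (difference 0.19, SE 0.08, adjusted p = 0.735). Jph1, a junctophilin that holds the reticulum near the plasma membrane, read 0.23 (SE 0.10, adjusted p = 0.715), also with non-overlapping groups. Its other probe set (1438428_at) read 0.09 with overlapping groups. In all, 4 partners had non-overlapping groups. The others were Casq1, which read higher (0.23, limma adjusted p = 0.76), and Itprip, which read lower (-0.20, adjusted p = 0.787). Another probe set of Itprip (1431894_at) read 0.05 with overlapping groups.

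**Figure D4:**
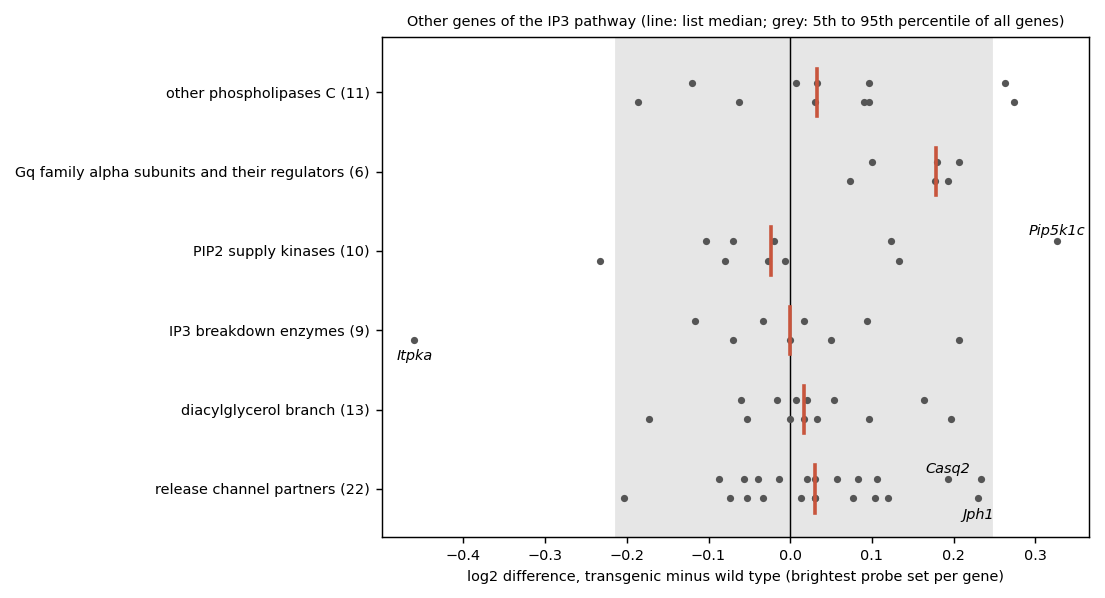
Log2 difference (transgenic minus wild type) of the brightest probe set of each of the 71 measured pathway genes, by list with the number of genes in brackets; red lines are list medians and the grey band spans the 5th to 95th percentile over all 18161 genes, from -0.21 to 0.25. Itpka at -0.46 and Pip5k1c at 0.33 lie farthest outside the band. Plch2 at 0.27, Plcl1 at 0.26 and Pip4k2b at -0.23 also lie outside it, and none of these genes passed the test.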

How the data were processed

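The authors deposited 1 log2 intensity for each probe set on each of 6 arrays. The submitters' processing notes name RMA and the affy package, with no version; RMA corrects background, equalizes the arrays' distributions and summarizes probes, so a shift of all transcripts cannot be seen, and no detection call is given. RNA was extracted with TRIzol and a column kit, per the labels.

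Genes came from the platform annotation, updated through a RefSeq gene table (GRCm38.p6; 34741 of 34945 single-gene probe sets matched). After 64 controls were left out, 45037 probe sets were fitted with limma 3.58.1 in R 4.3.3 (lmFit, eBayes, two-sided, transgenic minus wild type) and Benjamini-Hochberg adjusted, with a threshold of 0.05. All probe sets carrying 1 member gene alone were reported. Each pathway and marker list used the brightest probe set per gene, naming genes past the threshold or else the 2 of smallest p. Members and lists were chosen with earlier results of these data known. The test was checked on simulated data with independent noise in each value. These had no differences shared across an array, such as that of WT2, so the check does not cover them. The alternatives were filters on dim probe sets, other normalizations and variance models, array weights, a replicate block, a Gapdh covariate, other thresholds, leaving out each array, and averaging or leaving out probe sets. The number of arrays, 3 per group, limits the precision. P-values from limma weigh each difference against the spread between these samples, which limma adjusts toward that of all probe sets.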

Additional observations from a re-analysis of the deposited data

How the results depend on the processing

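No member probe set was called with the lowest 40% or 60% of probe sets dropped (16 and 7 of the 25 kept), quantile normalization again, median centring, trend or robust eBayes, the replicate block, the Gapdh covariate, a threshold of 0.10, or without probe sets ending in _x_at, _s_at or _a_at; leaving out each array gave 0 to 0 member calls and 0 to 0 pathway calls. With limma's default array weights, whose estimate did not converge and gave WT3 a weight of 19.1 (0.237 to 0.812 elsewhere), 3 member probe sets were called, of Ryr2 (0.28), Plcz1 (-0.34) and Plcb1 (-0.23), and 6 pathway genes, where 9.24% of all probe sets were. With gene-by-gene weights, chosen after seeing the data (WT3 at 4.7), 0 members and 2 pathway genes were called, where 2.35% of all probe sets were. An unadjusted p under 0.05 gave 4 and 4. With the lowest 60% dropped, at 0.10 and with averaged probe sets 1 pathway gene was called (Itpka each time), and without _x_at, _s_at and _a_at also 1 (Pi4k2b).

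The sign of 6 member probe sets held in every refit. They were that of Plcb3, the brighter of Plcz1 and the bright one of Plcd4. The rest were of Plcb1 (1425781_a_at), Ryr3 (1427427_at) and Ryr2 (1450123_at). All but that of Plcd4 had non-overlapping groups, whose order cannot turn when 1 array is left out. The dim filters, the replicate block and the trend and robust fits leave a difference as it is, so they could turn no sign. In the other 19 the sign turned in at least 1 refit, in 15 of them with the Gapdh covariate, which separates the genotypes. In Ryr2 1421126_at alone it turned with the 2 other normalizations. Over all probe sets 200 were called, 117 with the replicate block, 70 to 429 without 1 array, 309 with trend and 18 with the Gapdh covariate. Deviations of same-numbered arrays correlated at -0.319, -0.0651 and -0.0124. The labels state no pairing, and these few values cannot show whether same-numbered samples were handled together. The replicate block left 0 member calls and 0 pathway calls. The Gapdh difference ran from 0.125 to 0.185 without 1 array. The causes of these changes were not tested.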
